A study of Mus musculus with 24 samples.

Results

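The comparison described here set cells labelled pro-B that lack the transcription factor EBF1 but carry a Pax5 vector against wild-type pro-B cells. It covered every gene of the deposited exon count table. Its members are 4 of the 14 RNA libraries in a series of 24 samples, and they were taken by their genotype and vector: 2 libraries of Ebf1-KO cells with the Pax5 vector and 2 of wild-type cells with the empty vector. Pax5 exon counts in these Ebf1-KO cells stood at about their wild-type level. The comparison thus asks which parts of the wild-type pro-B program were absent although Pax5 was transcribed.

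All cells came from fetal liver of C57BL6/J mice and were labelled pro-B cells. They were expanded on OP9 stromal cells with KIT ligand, FLT3 ligand and interleukin-7, and infected with the retroviral vector pMiG. For the Ebf1-KO cells pro-B is only the label's name, and their levels of B-lineage genes and of other lineages' genes are given below. Wild-type cells carried pMiG without an insert and Ebf1-KO cells carried pMiG-Pax5, so genotype and insert differ together between the groups. The labels do not say whether infected cells were sorted or which part of Ebf1 was deleted. They also do not say whether the replicates of a group came from separate cultures. The spread behind each p-value was estimated over the replicates of all 7 RNA groups, including groups outside the comparison, and it may be technical. Ebf1-KO cells with empty pMiG and Pax5-KO cells with pMiG-Pax5, 2 libraries each, are given beside the comparison where they show what the Pax5 vector did in either genotype.

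EBF1 and PAX5 are DNA-binding proteins that B-cell precursors need in sequence: EBF1 opens the early B-cell program and activates Pax5, and PAX5 then activates further B-lineage genes and shuts off genes of other blood lineages. A pro-B cell prepares the parts of the pre-B-cell receptor, which are the surrogate light chain (VpreB and lambda5) and the signalling chains CD79A and CD79B, before it has a heavy chain to pair with them. MYC, which the series is about, is a DNA-binding factor that promotes ribosome production, growth and entry into division in such precursors.

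The libraries held 21106276 and 16118136 exon counts in wild type and 21642393 and 28704593 in Ebf1-KO with Pax5. Levels are given as CPM, the count relative to the library size after TMM scaling. The 10 highest genes took 24.8% of the counts in wild-type replicate 1, 11.5% in wild-type replicate 2, and 14.4 and 8.42% with Pax5 in Ebf1-KO. The Pearson correlation of log2 CPM between replicates was 0.954 in wild type and 0.934 in Ebf1-KO with Pax5. Each p-value is a Benjamini-Hochberg adjusted p of edgeR's quasi-likelihood test over 14550 genes, with a threshold of 0.05, and each ± beside a log2 fold change is its standard error. In every pair of values, replicate 1 comes first. The strand of the reads is not given in the sources used here, so genes that overlap another annotated gene can share its reads: of the genes named below these are Pax5, 5730488B01Rik, Cd34, Il1r2, Col27a1, Cd72, Cd74, Bach2, Atp1b1, Rag2, Lyn, Itga4, Csf1r, Bcl2, Pik3cd, Ccnd2, Ccnd3, Bysl, Txnip, Gnl3, Ncl, Nop56, Nop58, Wdr43 and Xist. Vpreb1 and Vpreb2 are near-identical copies, and the H2, Oas, Ly6 and Klr genes belong to families of similar sequence, so their reads may be split between members.

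Ebf1 read 966 and 1102 CPM in wild type, against 252 and 256 in Ebf1-KO with Pax5 (log2 fold change -2.03 ± 0.20, adjusted p = 4.5e-06). In mm10 Ebf1 lies at chr11:44618100-45008096, Pax5 at chr4:44531506-44710440 and Myc at chr15:61985341-61990361. Since the counts cover all exons, the reads that remain do not show whether any intact transcript was made, and the empty-vector Ebf1-KO libraries read 244 and 282. Pax5 read 412 and 333 CPM in wild type, against 429 and 399 in Ebf1-KO with Pax5 (0.15 ± 0.26, adjusted p = 0.75). It read 2.24 and 2.49 with empty vector (7.45 ± 0.35, adjusted p = 4.3e-08 for Pax5 against empty vector). The 5730488B01Rik transcript, which lies on the other strand inside the Pax5 gene, read 107 and 96.5 CPM in wild type, against 0.0431 and 0 in Ebf1-KO with Pax5, with no overlap. The counts do not separate vector transcripts from those of the chromosomal gene. Because they cover all exons, similar Pax5 counts do not show that the same transcripts were present at the same level.

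Between Ebf1-KO with Pax5 and wild type, 1490 genes were higher (10.2% of those tested) and 906 were lower (6.23%). The change passed 4-fold for 929 of the higher and 374 of the lower genes, and 32-fold for 491 and 166. The column headers carry one tag for all replicate 1 libraries and another for all replicate 2 libraries, and what the tags stand for is not given in the sources used here. Of the 2396 genes called, 1039 kept an adjusted p under 0.05 whichever of the 4 libraries was left out, 710 of them higher and 329 lower. The median log2 fold change over all genes tested was 0.00, and the libraries of the groups did not overlap for 56.5% of them.

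Among the B-lineage lists the one of pre-B-cell receptor chains, which also holds the related gene Vpreb3, had the lowest median. All 6 of its genes were lower than in wild type (median log2 fold change -8.35), and these calls held with any library left out. Igll1, which encodes lambda5, read 1047 and 822 CPM in wild type, against 0.345 and 4.89 in Ebf1-KO with Pax5 (-8.43 ± 0.71, adjusted p = 1.1e-06). The other part of the surrogate light chain, VpreB, is encoded by Vpreb1, at 331 and 229 CPM in wild type and 1.68 and 0.227 with Pax5 (-8.28 ± 0.61, adjusted p = 2.9e-07), and by Vpreb2, at 75.0 and 63.7 in wild type and 0 and 0.227 with Pax5 (-9.05 ± 0.60, adjusted p = 2.2e-07). Vpreb3, which encodes a protein that binds immunoglobulin light chains, read 369 and 326 in wild type and 0.560 and 0.906 with Pax5 (-8.86 ± 0.80, adjusted p = 3.9e-06). The libraries of the 2 groups did not overlap for any of these genes, and Vpreb2 had no read in replicate 1 with Pax5.

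The signalling chains were lower by less. Cd79a read 611 and 427 CPM in wild type, against 7.93 and 6.21 in Ebf1-KO with Pax5 (-6.20 ± 0.31, adjusted p = 6.6e-09). Cd79b read 571 and 456 in wild type and 32.6 and 32.1 with Pax5 (-3.99 ± 0.24, adjusted p = 4.8e-08). Both had been lower still with empty vector, at 0.549 and 0.518 for Cd79a and 3.11 and 3.94 for Cd79b, and both rose with Pax5 in Ebf1-KO cells (3.72 ± 0.33, adjusted p = 1.5e-05 and 3.19 ± 0.24, adjusted p = 3.5e-06). Igll1 did not pass that test (2.85 ± 0.78, adjusted p = 0.055, with 0.320 and 0.414 CPM under empty vector), and neither did Vpreb1 (1.25 ± 0.71, adjusted p = 0.42). Returning Ebf1 in place of Pax5 gave 852 and 867 CPM of Igll1, and Pax5 in Pax5-KO cells, whose Ebf1 gene is intact, gave 1039 and 1131.

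EBF1 peaks from the pre-B line 230-238 lay near all 6 genes of the chain list, within 1 kb of the start of 5 and within 10 kb of 6. Of all genes tested, 27.4% had such a peak within 1 kb and 45.9% within 10 kb. The peak at Igll1 is centred 235 bases before the gene start, with a normalized tag count of 295.8 and a 122.96-fold enrichment over control in the authors' list. The 250 bases before the Igll1 start are shown because they hold that peak's centre; they are RefSeq sequence of GRCm38.p6 (mm10), minus strand, chr16:16863986-16864235. Capitals mark the one match to CCCNNGGG, the core of the palindrome that EBF1 binds, 231 to 224 bases before the start.
Igll1: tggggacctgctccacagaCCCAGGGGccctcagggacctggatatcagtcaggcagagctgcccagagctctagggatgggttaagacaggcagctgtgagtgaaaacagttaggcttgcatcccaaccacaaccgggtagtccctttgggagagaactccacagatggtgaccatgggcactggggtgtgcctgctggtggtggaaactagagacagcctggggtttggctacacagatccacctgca
That core reads the same on either strand and is found in 13.7% of 32851 promoter windows of 300 bases, so the match is a description of the letters and not evidence of a site.

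**Figure D1:**
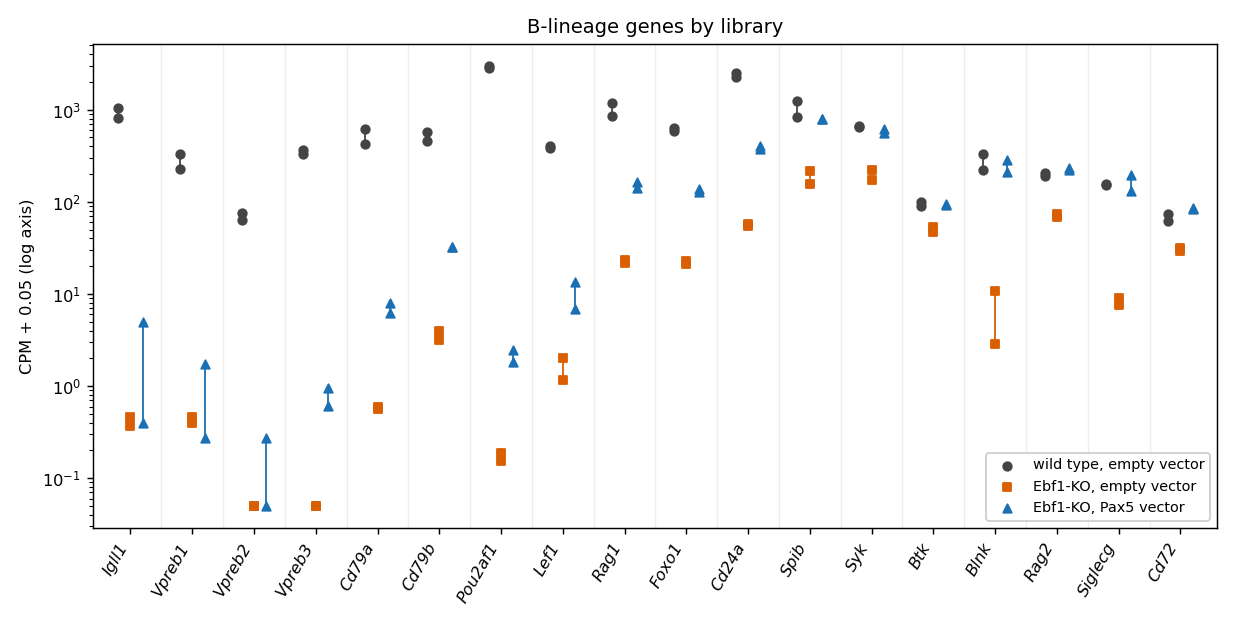
CPM plus 0.05 on a log axis for 18 B-lineage genes, with one point per library and a line joining the 2 libraries of a group. From Igll1 to Cd24a the Ebf1-KO libraries with Pax5 lie below both wild-type libraries, while from Spib to Cd72 they lie close to them and above the Ebf1-KO libraries with empty vector.

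Among B-lineage transcription factors 9 of 14 were lower, 2 were higher and 3 did not pass (median -1.42). Pou2af1, the coactivator OCA-B, showed the widest gap: 2979.9 and 2803 CPM in wild type, against 1.77 and 2.43 in Ebf1-KO with Pax5 (-10.41 ± 0.38, adjusted p = 4.1e-10). Ebf1-KO cells with empty vector read 0.137 and 0.104 (4.11 ± 0.49, adjusted p = 0.00017 for Pax5 against empty vector, or adjusted p = 0.10 in a fit of those 4 libraries alone), and Pax5-KO cells with the Pax5 vector read 681 and 942. Lef1, a factor of the WNT pathway, fell from 382 and 404 to 13.3 and 6.86 CPM (-5.29 ± 0.35, adjusted p = 9.9e-08), and Ikzf3, which encodes Aiolos, from 672 and 773 to 73.3 and 27.1 (-3.85 ± 0.41, adjusted p = 1.1e-05). Ikzf3 had read 7.23 and 8.98 with empty vector (2.63 ± 0.40, adjusted p = 0.0013 for Pax5 against empty vector). The libraries of these genes did not overlap between groups.

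Foxo1, which drives Rag and Il7r transcription, read 588 and 638 CPM in wild type and 127 and 138 with Pax5 (-2.21 ± 0.17, adjusted p = 5.7e-07), and had read 23.0 and 21.3 with empty vector (2.58 ± 0.18, adjusted p = 2e-06 for Pax5 against empty vector). Irf4 and Bach2, factors that act in light-chain rearrangement and in B-cell identity, were lower by 1.95 ± 0.33 and 1.74 ± 0.21 on the log2 scale. Irf8 and Mycn were the 2 higher members. Irf8 read 89.3 and 69.3 CPM in wild type and 215 and 167 with Pax5 (1.26 ± 0.28, adjusted p = 0.0055, or adjusted p = 0.078 without wild-type replicate 2). Spib, Bcl11a and Tcf4 did not pass, and Spib, an ETS factor, read 826 and 1227 CPM in wild type, 783 and 792 with Pax5 and 156 and 216 with empty vector (-0.38 ± 0.22, adjusted p = 0.28 against wild type and 2.08 ± 0.23, adjusted p = 0.00011 against empty vector).

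The kinases and adaptors that carry the receptor's signal divided. Of 12 members 4 were lower, 5 were higher and 3 did not pass, with a median log2 fold change of -0.09. Over all genes tested, 6.23% were lower and 10.2% higher. Pik3ap1, an adaptor that links B-cell receptor signalling to PI3K, was lower (-1.26 ± 0.26, adjusted p = 0.0033). Blk, a SRC-family kinase, and Cd22, an inhibitory receptor, were also lower (-4.89 and -2.07), but Blk lost the call without wild-type replicate 2 (adjusted p = 0.052) and Cd22 with any library left out (adjusted p up to 0.22, without replicate 2 of Ebf1-KO with Pax5).

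The higher members included the kinase gene Lyn, the phospholipase gene Plcg2, and the adaptor and scaffold genes Dapp1 and Bank1. Lyn read 269 and 308 CPM in wild type and 585 and 696 with Pax5 (1.15 ± 0.22, adjusted p = 0.0019), and Dapp1 47.7 and 49.1 in wild type and 139 and 125 with Pax5 (1.45 ± 0.22, adjusted p = 0.00027). Bank1 and Plcg2 lost their calls with a library left out. Without wild-type replicate 2 the adjusted p was 0.094 for Bank1, and without wild-type replicate 1 it was 0.11 for Plcg2.

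A set of B-lineage genes stood close to wild type. Blnk, the adaptor that couples SYK to downstream enzymes, read 329.5 and 221 CPM in wild type, 209.9 and 285 with Pax5 and 2.79 and 10.8 with empty vector (-0.15 ± 0.47, adjusted p = 0.88 against wild type and 5.17 ± 0.56, adjusted p = 9.3e-05 against empty vector). The kinase Syk read 660.1 and 653 in wild type, 559 and 623 with Pax5 and 172 and 223 with empty vector (-0.15 ± 0.22, adjusted p = 0.70 against wild type and 1.58 ± 0.23, adjusted p = 0.00084 against empty vector). For these genes the difference from wild type was smaller than its standard error, and the libraries of the groups overlapped for Blnk but not for Syk.

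Siglecg, an inhibitory lectin receptor of B cells, read 152 and 155 CPM in wild type, 195 and 132 with Pax5 and 7.46 and 9.05 with empty vector (0.10 ± 0.46, adjusted p = 0.93 against wild type and 4.31 ± 0.53, adjusted p = 0.00021 against empty vector). Btk, a kinase downstream of SYK, read 91.1 and 100.1 in wild type, 92.0 and 94.9 with Pax5 and 46.6 and 52.7 with empty vector (-0.03 ± 0.23, adjusted p = 0.95 against wild type). Its rise over empty vector, 0.91 ± 0.23, adjusted p = 0.037, did not hold with any library left out (adjusted p up to 0.36, without Ebf1-KO replicate 1). Cd72, a coreceptor that PAX5 is known to activate, read 73.0 and 62.0 in wild type, 82.5 and 85.8 with Pax5 and 29.2 and 31.3 with empty vector (0.32 ± 0.30, adjusted p = 0.53 against wild type), and its rise over empty vector (1.48 ± 0.30, adjusted p = 0.012) was lost without Ebf1-KO replicate 1 (adjusted p = 0.17). Nedd9, a scaffold of adhesion signalling, reached 71.3% of its wild-type mean, from 11.4% with empty vector (-0.49 ± 0.37, adjusted p = 0.42 against wild type and 2.65 ± 0.39, adjusted p = 0.0012 against empty vector). A p that misses the threshold does not show that these levels equal those of wild type.

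Of 14 B-cell surface and secreted markers 9 were lower and 5 did not pass (median -2.60). Cd24a, a surface glycoprotein of precursor B cells, read 2489 and 2261 CPM in wild type, 371 and 407 with Pax5 and 54.9 and 58.0 with empty vector (-2.61 ± 0.20, adjusted p = 5e-07 against wild type and 2.79 ± 0.21, adjusted p = 3.1e-06 against empty vector). Enpep, the peptidase known as the BP-1 antigen, fell from 279 and 241 to 1.08 and 0.485 CPM (-8.40 ± 0.44, adjusted p = 6.4e-08), and Bst1, an ADP-ribosyl cyclase, from 265 and 212 to 6.21 and 3.92 (-5.56 ± 0.38, adjusted p = 1.4e-07). Ly6d, a marker of lymphoid progenitors committed to the B lineage, read 125 and 83.4 in wild type and 8.96 and 3.66 with Pax5 (-4.05 ± 0.41, adjusted p = 6.3e-06) and did not pass between Pax5 and empty vector, where it read 10.8 and 16.3. Of the 9 calls 5 held with any library left out.

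Of 12 recombination genes 2 were lower and 10 did not pass (median 0.05), where 10.2% of all genes tested were higher and 6.23% lower. Rag1, the catalytic subunit of the recombinase, read 854 and 1184 CPM in wild type, 141 and 165 with Pax5 and 21.6 and 23.2 with empty vector (-2.74 ± 0.22, adjusted p = 7.2e-07 against wild type and 2.77 ± 0.22, adjusted p = 4.9e-06 against empty vector). Its partner Rag2 read 205 and 192 in wild type, 235 and 223 with Pax5 and 69.0 and 73.2 with empty vector (0.21 ± 0.21, adjusted p = 0.56 against wild type and 1.69 ± 0.21, adjusted p = 0.00028 against empty vector). Rag2 thus reached 115% of the wild-type mean and Rag1 15.0%. Lig4, the ligase that seals the joined ends, was lower (61.6 and 58.5 in wild type and 4.14 and 7.60 CPM with Pax5, -3.35 ± 0.47, adjusted p = 0.00015). Polm, a polymerase that fills in joints, read 6.79 and 5.26 in wild type and 37.1 and 32.3 with Pax5 without passing (2.52 ± 1.15, adjusted p = 0.16).

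Lists of genes known from the literature to depend on each factor were then compared. Of 12 genes known to be activated by EBF1, 10 were lower, Blnk and Cd72 did not pass, and none was higher (median -4.44). Of 21 genes known to be activated by PAX5, 9 were lower, 3 were higher and 9 did not pass (median -1.20). The 3 higher ones were Ciita, Irf8 and Mycn. The lists share members, such as Cd72. Against Ebf1-KO with empty vector, 9 of the 12 EBF1 genes were higher with Pax5 and none was lower (median 3.13). Of the 21 PAX5 genes, 13 were higher there and 1 was lower (median 2.22). Over all genes tested, 3.15% were higher and 0.935% lower in that comparison. Cplx2, which encodes a protein of vesicle release, read 586 and 557 CPM in wild type and 0 and 0.0647 with Pax5. This is a ratio of 15471 with an exact 95% counting interval from 4282 to 127757, since only 2 reads were counted with Pax5. Atp1b1, a sodium pump subunit, read 1244 and 909 in wild type and 68.3 and 56.7 CPM with Pax5 (-4.11 ± 0.28, adjusted p = 1.4e-07) and 60.9 and 75.5 with empty vector.

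All 11 genes known to be repressed by PAX5 were higher in Ebf1-KO with Pax5 than in wild type (median 6.32), and 10 of them held with any library left out, the exception being Notch1. Flt3, the receptor of FLT3 ligand, read 2.38 and 3.43 CPM in wild type, 202 and 260.3 with Pax5 and 356 and 399 with empty vector (6.32 ± 0.26, adjusted p = 9e-10 against wild type). Cd28, a costimulatory receptor of T cells, read 1.04 and 1.09 in wild type, 112 and 116 with Pax5 and 105 and 105 with empty vector (6.74 ± 0.34, adjusted p = 8.3e-09). Csf1r, the receptor of a macrophage growth factor, read 0.673 and 0.0572 in wild type, 46.5 and 68.5 with Pax5 and 13.3 and 15.2 with empty vector (7.25 ± 1.06, adjusted p = 0.00021).

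Cd33, a lectin of myeloid cells, was at 0 in both wild-type libraries and at 19.7 and 19.0 CPM with Pax5, which is at least 237-fold higher if 3 counts over both wild-type libraries are taken as the floor. The chemokine gene Ccl3 and the progenitor antigen gene Ly6a were higher by 8.16 ± 1.24 and 6.96 ± 0.45 on the log2 scale. Against Ebf1-KO with empty vector none of the 11 genes passed, where 3.15% of all genes tested were higher and 0.935% were lower, and the median was 0.72. At an unadjusted p under 0.05 the count was 7 of 11, with 6 higher, and DESeq2 called 2, 1 in each direction. Flt3 read lower than with empty vector without passing (-0.71 ± 0.20, adjusted p = 0.062). Against Pax5-KO cells with the same vector 10 of 11 were higher (7.18% of all genes tested were higher and 7.64% lower), and Flt3 read 22.4 and 20.5 CPM there (3.43 ± 0.22, adjusted p = 1.7e-07). The 3 comparisons share the libraries of Ebf1-KO with Pax5.

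**Figure D2:**
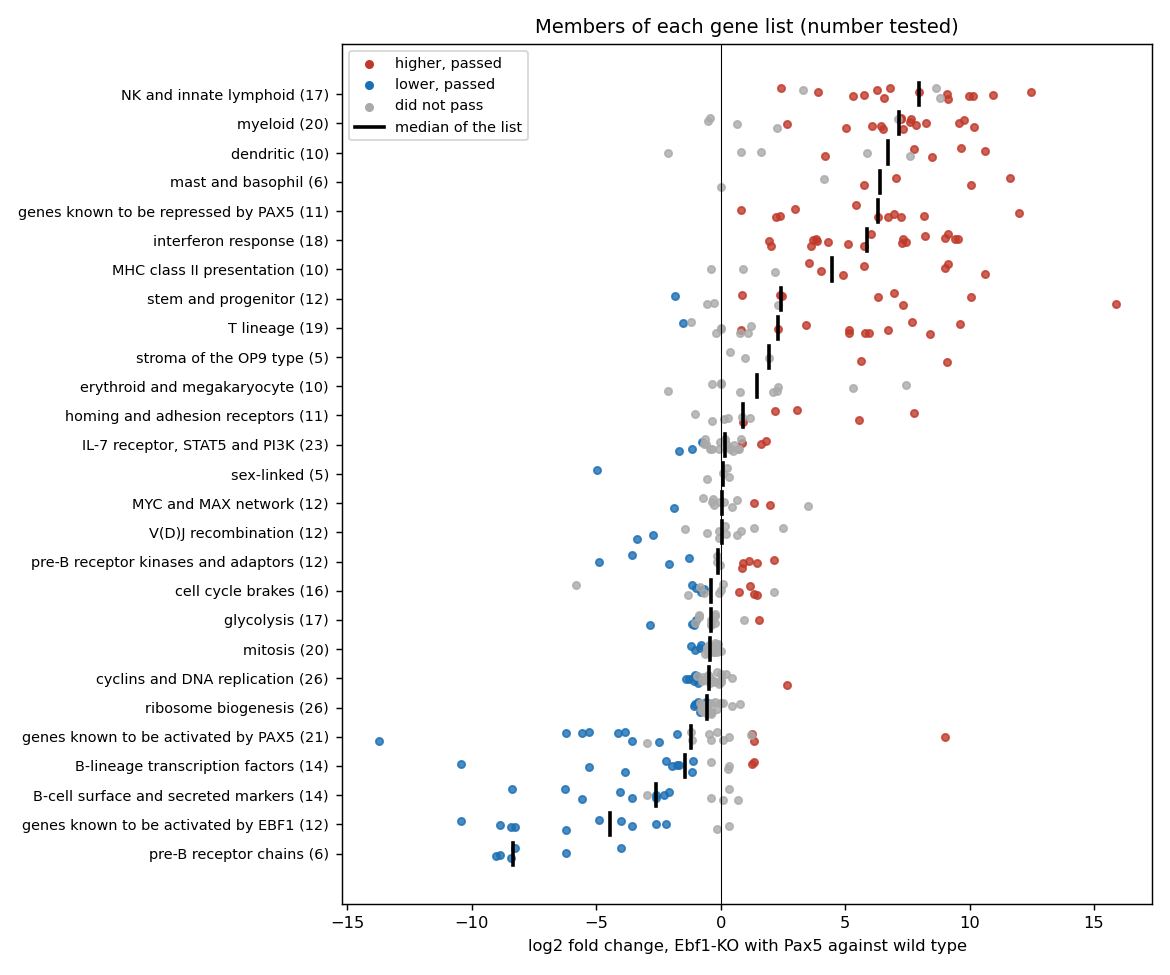
Log2 fold change of Ebf1-KO with Pax5 against wild type for each tested member of the 27 gene lists, coloured by whether the gene passed the test, with the list median as a black bar. The medians run from -8.35 for the pre-B receptor chains to 7.95 for the NK and innate lymphoid list, and fitted values of genes at 0 in one group depend on the prior count.

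Genes of other blood lineages were detected in the Ebf1-KO cells with Pax5. In bulk RNA, more cells of another type and more RNA per cell cannot be told apart. Of 17 tested genes of NK and innate lymphoid cells 14 were higher and 3 did not pass (median 7.95, or 5.88 with the 5 genes that wild type lacked set at their bound). The summed level of the list ran from 7.44 to 8.24 CPM in wild type, from 616 to 649 with Pax5 and from 478 to 590 with empty vector. Il2rb, a shared chain of the interleukin-2 and interleukin-15 receptors, read 0.104 and 0.172 CPM in wild type and 148 and 171 with Pax5 (10.15 ± 0.44, adjusted p = 1.5e-09). Eomes and Tbx21, the T-box factors of NK cells, were at 0 in wild type. With Pax5, Eomes read 28.5 and 25.4 CPM, at least 328-fold higher, and Tbx21 4.78 and 4.82, at least 58.9-fold higher. Cd7, a surface protein of NK and T cells, read 0 and 0.114 in wild type and 105 and 131 with Pax5.

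Of 20 myeloid genes 15 were higher and 5 did not pass (median 7.18, or 6.26 with genes at 0 set at their bound). The list summed to between 95.1 and 139 CPM in wild type, 887 to 919 with Pax5 and 789 to 798 with empty vector. Mpo, the peroxidase of neutrophil granules, read 0.0518 and 0.172 in wild type and 57.9 and 117 CPM with Pax5 (9.59 ± 1.08, adjusted p = 1.9e-05), and Tyrobp, an adaptor of activating receptors, 1.81 and 0.0572 in wild type and 214 and 171 with Pax5 (7.64 ± 0.68, adjusted p = 1.9e-06). Ly6c2, a monocyte antigen, read 0.0518 and 0.458 in wild type and 62.0 and 55.9 with Pax5 (7.86 ± 0.65, adjusted p = 8.4e-07), and Adgre1, the F4/80 antigen of macrophages, 0 and 0.0572 in wild type and 37.9 and 37.2 with Pax5. Spi1, which encodes PU.1, did not pass, at 81.6 and 40.2 in wild type and 70.7 and 122 CPM with Pax5 (0.66 ± 0.36, adjusted p = 0.25).

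Of 10 tested dendritic cell genes 5 were higher and none was lower. Siglech, a lectin of plasmacytoid dendritic cells, read 0 and 0.0572 CPM in wild type and 52.9 and 47.3 with Pax5. Runx2 and Ccr9, a transcription factor and a gut-homing chemokine receptor of these cells, read 2.12 and 2.12 against 722 and 798 (8.48 ± 0.27, adjusted p = 1.2e-10) and 2.23 and 1.77 against 369 and 501 (7.76 ± 0.41, adjusted p = 1e-08). Itgax, the integrin chain CD11c, read 0.104 and 0 in wild type and 39.3 and 55.9 with Pax5, and Tlr7, a sensor of RNA, 13.4 and 13.8 in wild type and 210.1 and 287 with Pax5 (4.19 ± 0.28, adjusted p = 1.2e-07). The list summed to 64.0 to 72.2 CPM in wild type, 1492 to 1769 with Pax5 and 1511 to 1900 with empty vector.

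T-lineage genes were higher in 11 of 19 tested and lower in 1 (median 2.30). The list of 21 summed to 490 to 496 CPM in wild type, 897 to 1008 with Pax5 and 842 to 1005 with empty vector. Tcf7, an early T-cell factor, read 1.92 and 0.458 in wild type and 80.3 and 69.3 CPM with Pax5 (5.95 ± 0.48, adjusted p = 6.6e-07), and Gata3, a factor of early T cells and innate lymphoid cells, 0.104 and 0.229 in wild type and 10.0 and 8.64 with Pax5 (5.78 ± 0.88, adjusted p = 0.00032). Bcl11b and Ptcra, which mark committed T-cell precursors, were at 0 in all 4 libraries. Cd4 and Cd3g were at 0 in wild type and called higher, but lost the call without wild-type replicate 2 (adjusted p = 0.070 and 0.067). Il2ra, the alpha chain of the interleukin-2 receptor, was the lower member, at 187 and 123 CPM in wild type, 53.7 and 54.2 with Pax5 and 9.47 and 11.8 with empty vector (-1.52 ± 0.25, adjusted p = 0.00069 against wild type and 2.34 ± 0.27, adjusted p = 0.00012 against empty vector).

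Stem and progenitor genes were higher in 8 of 12 tested and lower in 1 (median 2.43). Cd34, a sialomucin of progenitors, was at 0 in both wild-type libraries and at 206 and 365 CPM with Pax5, at least 3639-fold higher. Hoxa9 and Meis1, partner homeobox factors, read 0.881 and 0.114 against 95.7 and 68.7 (7.32 ± 0.55, adjusted p = 3.5e-07) and 7.04 and 4.12 against 28.0 and 34.2 (2.48 ± 0.35, adjusted p = 0.00017). Erg, an ETS factor, was the lower member, at 436 and 439 CPM in wild type, 134 and 113 with Pax5 and 5.17 and 10.4 with empty vector (-1.83 ± 0.28, adjusted p = 0.00031 against wild type).

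Mast cell and basophil genes gave 4 calls among 6 tested genes, all higher: Tpsb2, Cma1, Hdc and Gata2. None of these calls held with every library left out, and the adjusted p reached 0.085 for Tpsb2 and 0.13 for Gata2 without wild-type replicate 2, 0.16 for Cma1 without wild-type replicate 1, and 0.14 for Hdc without replicate 2 of Ebf1-KO with Pax5. The list summed to 0.311 and 4.92 CPM in wild type, 60.2 and 111 with Pax5 and 3.75 and 9.22 with empty vector. None of 10 tested erythroid and megakaryocyte genes passed edgeR's test, 2 had an unadjusted p under 0.05 and DESeq2 called 1. Of 12 markers of the OP9 feeder type 5 were tested and Sparc and Pdgfrb were higher, with Sparc at 37.7 and 58.4 CPM and Pdgfrb at 36.1 and 28.2 with Pax5, while Col3a1, Dcn, Lum and Vcam1 were at 0 in all 4 libraries. The part of other cell types in the results was not tested. Xist, the RNA of the inactive X chromosome, read 0.466 and 29.6 CPM in wild type and 0.302 and 0.615 with Pax5, and its call as lower was lost without wild-type replicate 2 (adjusted p = 1.0).

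All 18 genes of the interferon response were higher than in wild type (median 5.89, or 5.56 with the gene at 0 set at its bound), and all 18 held with any library left out. The list summed to 188 and 219.5 CPM in wild type, 3045 and 3439.6 with Pax5 and 1793 to 2017 with empty vector. Oasl2 and Oas3, genes of the oligoadenylate synthetase family that senses double-stranded RNA, read 1.29 and 0.687 against 458 and 585 (9.02 ± 0.57, adjusted p = 6.8e-08) and 0.518 and 0.286 against 191 and 272 (9.14 ± 0.39, adjusted p = 1.2e-09). Rsad2, the antiviral enzyme viperin, read 0 and 0.401 in wild type and 130.1 and 166 with Pax5 (9.55 ± 0.65, adjusted p = 1.4e-07). Between Pax5 and empty vector in Ebf1-KO cells, 3 of the 18 passed and were higher with Pax5. Over all genes tested, 3.15% were higher and 0.935% lower there. The 3 included Oas3 (1.19 ± 0.25, adjusted p = 0.014) and Ifit2 (1.54 ± 0.40, adjusted p = 0.043). The calls of Oas3 and Ifit2 were lost with libraries left out (adjusted p up to 0.19 without replicate 2 of Ebf1-KO with Pax5, and up to 0.25 without Ebf1-KO replicate 2).

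Of 10 genes of MHC class II presentation 7 were higher in Ebf1-KO with Pax5 than in wild type and 3 did not pass (median 4.48), and its levels added up to 305 and 322 CPM in wild type, 2577 and 2991 with Pax5, 260.4 and 453 with empty vector, and 170 to 234 in Pax5-KO cells with Pax5. Cd74 makes up most of these sums. Between Ebf1-KO with empty vector and wild type, 5 of the 10 were already higher and none was lower (median 1.61), where 8.02% of all genes tested were higher and 6.65% lower. Cd74, the invariant chain that escorts class II molecules, read 202 and 162 CPM in wild type, 1974 and 2307 with Pax5, 147 and 298 with empty vector and 183 and 123 in Pax5-KO with Pax5. Both libraries with Pax5 in Ebf1-KO lay above all 6 others (3.56 ± 0.37, adjusted p = 7.8e-06 against wild type, 3.26 ± 0.36, adjusted p = 9.6e-05 against empty vector and 3.81 ± 0.37, adjusted p = 1e-05 against Pax5-KO with Pax5).

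Ciita, the coactivator that switches on class II genes, read 0.155 and 0 CPM in wild type, 41.1 and 47.9 with Pax5, 2.75 and 2.97 with empty vector and 1.58 and 0.113 in Pax5-KO with Pax5. The 3 wild-type reads gave a ratio of 551 (exact 95% counting interval 188 to 2675). Its rise over empty vector (3.96 ± 0.97, adjusted p = 0.035) did not hold with any library left out (adjusted p up to 0.29, without Ebf1-KO replicate 1). H2-Aa, a chain of the I-A molecule, read 0.570 and 0 in wild type and 149 and 186 with Pax5 (9.13 ± 1.59, adjusted p = 0.00096), and H2-Eb1, a chain of I-E, 0.104 and 0 in wild type and 70.6 and 115 with Pax5. The H2-Eb1 rise over empty vector (4.51 ± 0.72, adjusted p = 0.0021) was lost without Ebf1-KO replicate 1 (adjusted p = 0.056).

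H2-DMa and H2-DMb2, chains of the peptide-loading molecule H2-M, were higher by 5.74 ± 0.87 and 4.93 ± 0.87 on the log2 scale. H2-Ab1 read 1.81 and 9.10 in wild type and 83.3 and 96.2 CPM with Pax5 (4.04 ± 0.98, adjusted p = 0.010), and without wild-type replicate 1 its adjusted p was 0.081. Cd74, Ciita and H2-Eb1 were the 3 of 10 class II genes that passed between Pax5 and empty vector, and 7 of 10 were higher than in Pax5-KO with Pax5. The dendritic cell list, whose cells also present antigen, gave 1 call between Pax5 and empty vector among 10 genes tested. It was Tlr9 (1.27 ± 0.29, adjusted p = 0.025), and that call was lost with any library left out. At an unadjusted p under 0.05 the count was 4 of 10, with 2 higher and 2 lower, and DESeq2 called 3. Over all genes tested, 3.15% were higher and 0.935% lower in that comparison. The part of dendritic cells in the class II levels was not tested.

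**Figure D3:**
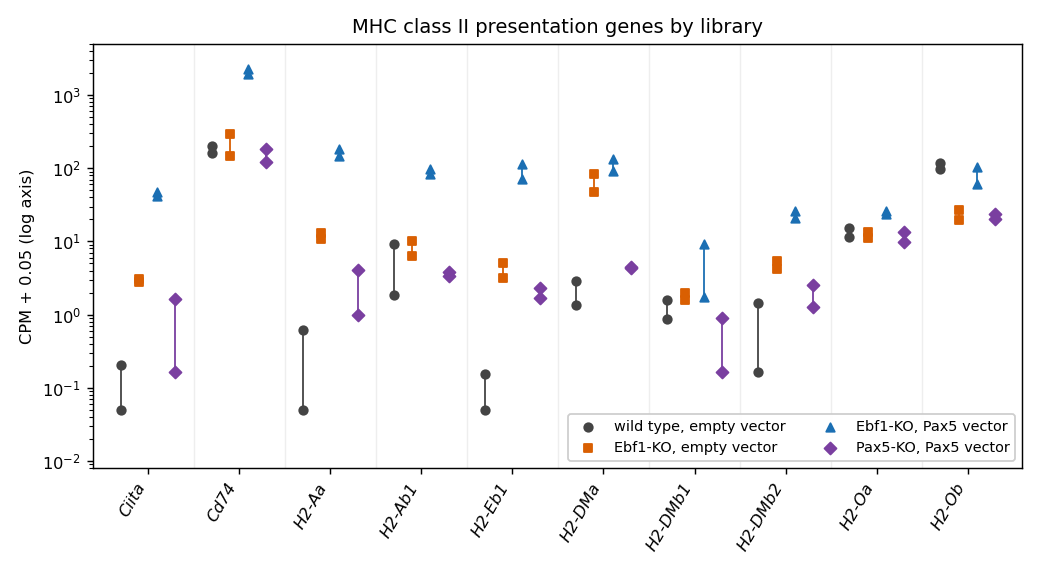
CPM plus 0.05 on a log axis for 10 MHC class II presentation genes in 4 groups, with one point per library. For Ciita, Cd74, H2-Aa, H2-Ab1 and H2-Eb1 both libraries of Ebf1-KO with Pax5 lie above all libraries of the other groups, and for H2-Ob they overlap wild type.

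Among homing and adhesion receptors 5 of 11 were higher and none was lower (median 0.90), beside 10.2% higher and 6.23% lower over all genes tested. Itga4, the alpha4 integrin chain that binds VCAM1, read 441 and 613 CPM in wild type and 2338 and 2483 with Pax5 (2.19 ± 0.24, adjusted p = 1.7e-05). Its partner Itgb7 read 2.07 and 2.80 in wild type and 97.9 and 132 with Pax5 (5.56 ± 0.53, adjusted p = 3.6e-06), and Itgal, the alpha chain of LFA-1, 54.7 and 62.9 in wild type and 475 and 506 with Pax5 (3.06 ± 0.24, adjusted p = 5.7e-07). Itgb1, the other partner of alpha4, was higher by 0.90 ± 0.22 on the log2 scale and lost the call without replicate 2 of Ebf1-KO with Pax5 (adjusted p = 0.11). Ccr9, given above, was the remaining higher gene.

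Myc read lowest in Ebf1-KO with Pax5 among the groups shown. It stood at 299 and 248 CPM in wild type, 66.8 and 84.3 with Pax5 (-1.86 ± 0.26, adjusted p = 0.00014), 143 and 187 with empty vector and 499 and 670.1 in Pax5-KO with Pax5 (-2.95 ± 0.27, adjusted p = 5.1e-06). The fall against wild type held with any library left out. Against empty vector the fall, -1.13 ± 0.25, adjusted p = 0.021, was lost in 3 of 4 such fits, with an adjusted p up to 0.18 without Ebf1-KO replicate 2. Mycn, a paralog of Myc, read 29.3 and 20.9 in wild type, 63.0 and 64.6 with Pax5 and 176 and 238 with empty vector (1.35 ± 0.40, adjusted p = 0.031 against wild type, adjusted p up to 0.22 without wild-type replicate 2, and -1.70 ± 0.40, adjusted p = 0.027 against empty vector, adjusted p up to 0.19 without Ebf1-KO replicate 2).

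Of 12 genes of the MYC and MAX network Myc was lower, Mycn and Mxd1 were higher and 9 did not pass (median 0.05). With 10.2% of all genes tested higher and 6.23% lower, these counts alone do not set the list apart. Mxd1, a MAX partner that opposes MYC, read 21.5 and 14.02 in wild type and 58.6 and 82.9 CPM with Pax5 (1.99 ± 0.38, adjusted p = 0.0020). Max itself read 284 and 242 in wild type and 310.4 and 408 with Pax5 (0.45 ± 0.21, adjusted p = 0.16).

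Ribosome biogenesis, a process that MYC is known to drive, was lower in 7 of 26 genes and higher in none (median -0.57). Over all genes tested, 6.23% were lower and 10.2% higher. In Ebf1-KO with empty vector 1 of the 26 was lower than in wild type and none was higher (median 0.14). Between Pax5 and empty vector 4 were lower and none was higher (median -0.61), where 0.935% of all genes tested were lower and 3.15% higher. A link of this list to the Myc level was not tested. Gnl3, the nucleolar GTPase nucleostemin, read 73.5 and 80.6 CPM in wild type, 39.3 and 36.6 with Pax5, 107 and 96.4 with empty vector and 140.4 and 139.7 in Pax5-KO with Pax5. It was lower than in each of them (-1.02 ± 0.21, adjusted p = 0.0038, -1.42 ± 0.21, adjusted p = 0.0012 and -1.88 ± 0.22, adjusted p = 5.5e-05), and was the only 1 of the 7 whose call against wild type held with any library left out. Bysl, Nop2, Nop56, Nop58 and Wdr43 lost it in at least 1 such fit, with an adjusted p up to 0.058 for Bysl and 0.18 for Nop56 without wild-type replicate 2. Without replicate 1 of Ebf1-KO with Pax5 it was 0.22 for Nop2, 0.17 for Nop58 and 0.31 for Wdr43. Ncl, which encodes nucleolin, read 1506 and 1329 in wild type and 855 and 1117 CPM with Pax5 without passing (-0.52 ± 0.29, adjusted p = 0.25), against 2449 and 3832 in Pax5-KO with Pax5 (-1.67 ± 0.29, adjusted p = 0.0015). Between the 2 genotypes that carried the Pax5 vector, 19 of 26 were lower in Ebf1-KO and none was higher (median -1.44). The shares over all genes tested were 7.64% lower and 7.18% higher. Libraries of those genotypes also differ by sex: Y-linked Ddx3y read 56.2 and 81.5 CPM in Ebf1-KO with Pax5 and 0.0466 and 0 in Pax5-KO with Pax5, and the part of sex was not tested.

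The receptor of interleukin-7, the cytokine these cultures depend on, was lower. Il7r read 289.8 and 306 CPM in wild type, 98.9 and 89.8 with Pax5 (-1.66 ± 0.20, adjusted p = 4.1e-05) and 209.9 and 221 with empty vector (-1.19 ± 0.20, adjusted p = 0.0031 for Pax5 against empty vector). Il2rg, the common gamma chain with which it pairs, read 135 and 112 in wild type and 301 and 449 with Pax5 (1.60 ± 0.29, adjusted p = 0.0012). Bcl2, the survival gene downstream of this receptor, read 82.6 and 90.1 in wild type, 308 and 306 with Pax5 and 382 and 467 with empty vector (1.83 ± 0.20, adjusted p = 1.5e-05 against wild type).

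In all, 3 of 23 genes of the receptor, STAT5 and PI3K were higher, 3 were lower and 17 did not pass (median 0.18). Over all genes tested, 10.2% were higher and 6.23% lower, so the counts alone do not set this list apart. Pik3cd, the catalytic PI3K subunit of leukocytes, was lower by 1.17 ± 0.19 on the log2 scale. Pik3r1 (0.84), a regulatory subunit, and Pim1 (-0.75), a kinase induced by STAT5, lost their calls, Pik3r1 without wild-type replicate 1 (adjusted p = 0.11) and Pim1 without wild-type replicate 2 (adjusted p = 0.22).

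**Figure D4:**
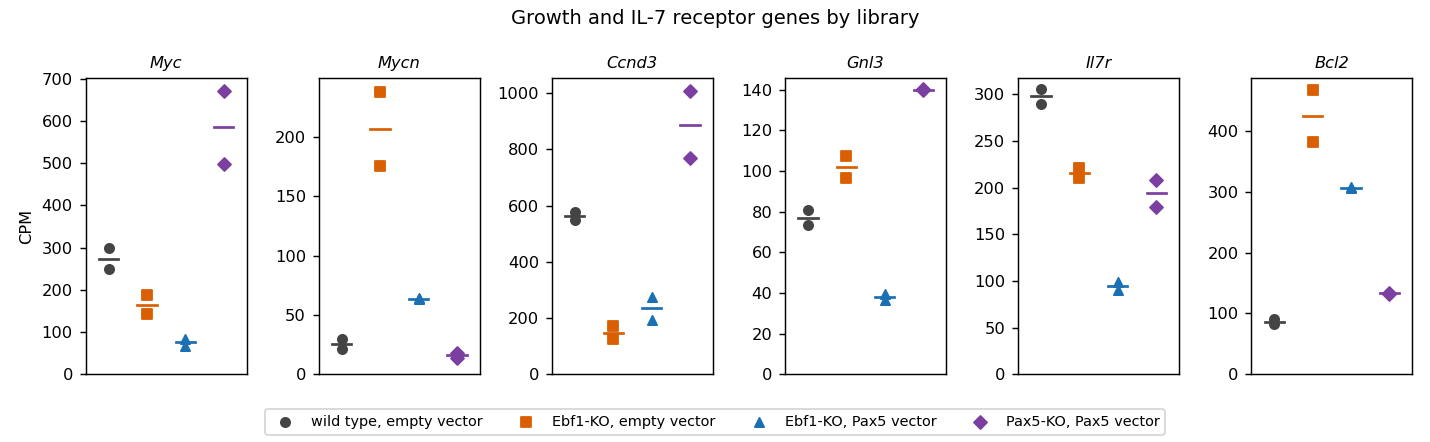
CPM on linear axes that start at 0 for Myc, Mycn, Ccnd3, Gnl3, Il7r and Bcl2 in 4 groups, with one point per library and a bar at the group mean. Both libraries of Ebf1-KO with Pax5 are the lowest of the 8 for Myc, Gnl3 and Il7r, and lie between wild type and empty vector for Mycn and Bcl2.

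Cell cycle genes changed in part. Of 26 cyclin and DNA replication genes 8 were lower and 1 was higher (median -0.48), where 6.23% of all genes tested were lower and 10.2% higher. Ccnd3, a D-type cyclin, read 547 and 579 in wild type and 194 and 275 CPM with Pax5 (-1.26 ± 0.24, adjusted p = 0.0017). Ccnd2 was lower by 1.09 ± 0.23 on the log2 scale, a call lost without replicate 1 of Ebf1-KO with Pax5. Ccnd1 was the higher gene, at 6.94 and 10.4 in wild type and 59.8 and 51.1 with Pax5 (2.68 ± 0.37, adjusted p = 0.00014). Uhrf1, which maintains DNA methylation through replication, and Pola1, a subunit of the primase-polymerase, were lower by 1.40 ± 0.25 and 1.03 ± 0.20. E2f2, a factor of the G1/S step, lost its call without replicate 1 of Ebf1-KO with Pax5 (-1.09, adjusted p = 0.065).

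Of 20 mitosis genes 4 were lower and none was higher (median -0.43), beside 6.23% lower and 10.2% higher over all genes tested. Mki67, the proliferation antigen Ki-67, read 4432 and 4022 in wild type and 1765 and 1901 CPM with Pax5 (-1.21 ± 0.19, adjusted p = 0.00041), and Bub1, a checkpoint kinase, was lower by 1.01 ± 0.19. Cenpf and Kif11, a kinetochore protein and a spindle motor, lost their calls without replicate 1 of Ebf1-KO with Pax5 (adjusted p = 0.087 and 0.25). Top2a, which untangles chromosomes, did not pass (-0.53 ± 0.24, adjusted p = 0.15).

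Among 16 tested cell cycle brakes 4 were higher, 4 were lower and 8 did not pass (median -0.37). The shares over all genes tested were 10.2% higher and 6.23% lower. Txnip, which limits glucose uptake, read 204 and 183 in wild type and 451 and 429 CPM with Pax5 (1.18 ± 0.21, adjusted p = 0.0012), and Trp53inp1, a p53-induced gene, was lower by 0.98 ± 0.19. These 2 calls held with any library left out. The others did not, among them Cdkn1a and Tob1, higher by 1.45 ± 0.33 and 1.35 ± 0.30 (adjusted p = 0.089 and 0.095 without wild-type replicate 2). Cdkn1b and Btg2 were lower by 1.15 ± 0.29 and 0.80 ± 0.22 (adjusted p = 0.083 without replicate 1 and 0.18 without replicate 2 of Ebf1-KO with Pax5).

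Of 17 glycolysis genes 4 were lower and 1 was higher (median -0.41), where 6.23% of all genes tested were lower and 10.2% higher. Slc16a1, the lactate transporter MCT1, read 157 and 144 CPM in wild type, 13.7 and 28.2 with Pax5 and 44.4 and 49.9 with empty vector (-2.84 ± 0.29, adjusted p = 7.9e-06 against wild type). Its fall against empty vector (-1.17 ± 0.28, adjusted p = 0.029) was lost in 3 of 4 fits with a library left out (adjusted p up to 0.21, without replicate 1 of Ebf1-KO with Pax5). Slc2a3, a glucose transporter, was the higher gene (1.53 ± 0.31, adjusted p = 0.0029). Ldha, Pgk1 and Pfkfb3, enzymes of the pathway, were lower by 1.06 ± 0.25, 1.17 ± 0.38 and 0.98 ± 0.28. They lost their calls without replicate 1 of Ebf1-KO with Pax5 (Ldha, adjusted p = 0.095, and Pgk1, adjusted p = 0.28) or without its replicate 2 (Pfkfb3, adjusted p = 0.20).

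Over all genes, the 10 largest rises among genes of at least 20 CPM and without overlap between libraries were all of genes at 0 in wild type. After Cd34 came Tnni1, a troponin subunit (at least 693-fold), Fyb, an adaptor of T and myeloid cells (at least 625-fold), Aoah, a lipase that inactivates endotoxin (at least 596-fold), and the chemokine receptor gene Ccr6 (at least 538-fold). Gpr141, Il1r2, Rd3, Adam11 and Eomes were at least 382-fold, 373-fold, 362-fold, 336-fold and 328-fold higher. Some of these read higher still with empty vector: Tnni1 stood at 129.9 and 184 CPM there against 49.0 and 62.1 with Pax5, and Fyb at 77.6 and 97.2 against 59.7 and 44.5. Aoah stood at 67.4 and 72.2 against 48.3 and 48.8, and Adam11, a metalloprotease-like surface protein, at 71.8 and 48.9 against 44.3 and 14.7. Others read higher with Pax5 than with empty vector: Ccr6 stood at 62.6 and 29.8 with Pax5 against 5.54 and 6.87, Il1r2, a decoy receptor of interleukin-1, at 23.0 and 36.1 against 5.03 and 3.49, and Rd3 at 28.4 and 30.3 against 0.275 and 1.45. These differences between Pax5 and empty vector are given as levels.

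The 10 deepest falls by the same rule were Cplx2, Alpl, 5730488B01Rik, Zfp521, Clgn, Pcdh9, Gm684, Gm20743, Il5ra and Col27a1. Alpl, an alkaline phosphatase, read 169.6 and 135 CPM in wild type and 0 in both libraries with Pax5, at least 2759.5-fold lower, and Zfp521, a zinc finger factor, 80.3 and 85.7 in wild type and 0 with Pax5, at least 1495-fold lower. Clgn, a testis chaperone related to calnexin, read 161 and 139 in wild type and 0.0431 and 0.0324 with Pax5, and returning Ebf1 in place of Pax5 gave 61.1 and 76.7. Pcdh9, a protocadherin, and the unnamed genes Gm684 and Gm20743 were at least 591-fold, 557-fold and 423-fold lower. Il5ra, the interleukin-5 receptor chain, and Col27a1, a collagen, were at least 396-fold and 368-fold lower. Pax5-KO cells with Pax5 read 32.8 and 44.5 CPM of Alpl, 43.8 and 25.6 of Zfp521 and 64.1 and 85.0 of Clgn.

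The lower genes were then set against EBF1 binding, a measure from another cell line that the expression contrast did not use. Of 906 lower genes 302 had an EBF1 peak within 1 kb of the start (33.3%, exact Clopper-Pearson 95% interval 30.3 to 36.5%), against 331 of 1490 higher genes (22.2%, 20.1 to 24.4%) and 27.6% of the genes that did not pass. Within 10 kb the shares were 54.9, 45.2 and 45.3%. The share was highest among genes with the smaller falls: 39.5% (210 of 532, 35.3 to 43.8%) where the log2 fold change was above -2, 25.5% (53 of 208) from -5 to -2 and 23.5% (39 of 166, 17.3 to 30.7%) below -5. The intervals cover counting error only, and genes are not independent replicates. The gene groups were not matched for expression level, and its part in these shares was not tested. The 1 peak list was made from pre-B cells, so it does not show where EBF1 would bind in these cultures.

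**Figure D5:**
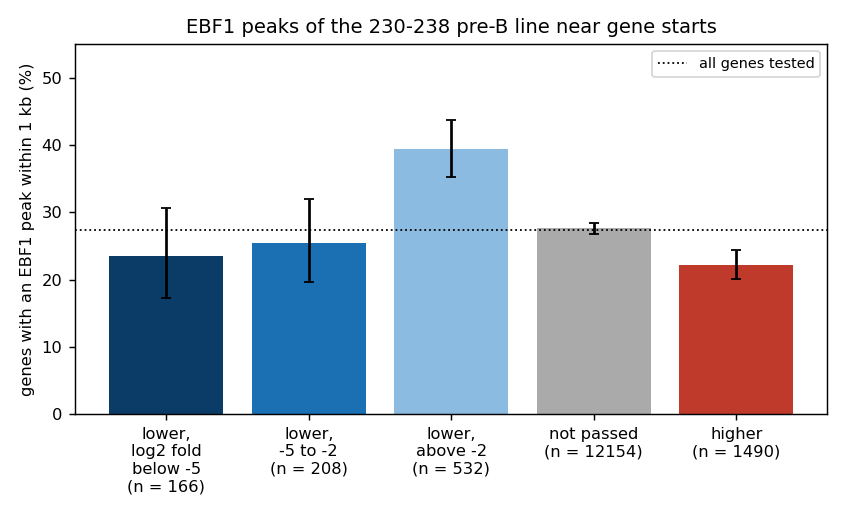
Percent of genes with an EBF1 peak of the pre-B line within 1 kb of the start, by the gene's call in Ebf1-KO with Pax5 against wild type, with the lower genes parted by fold change, exact 95% intervals as error bars, and the share of all genes tested as a dotted line. Lower genes with a log2 fold change above -2 reach 39.5%, above the 27.4% of all genes tested, and the 2 groups with deeper falls lie at 23.5 and 25.5%.

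The full palindrome, which is CCCNNGGG with T before it and A after it and reads the same on either strand, was found in 11 of 645 lower genes with a matched promoter (1.71%), 10 of 1078 higher genes (0.928%), 109 of 10731 tested genes matched (1.02%) and 0.904% of all 32851 promoter windows. The PAX5-type letters GCGTGAC, searched on both strands, were in 38 of the 645 (5.89%), against 3.95% of all tested genes matched. The 250 bases before the start of 3 lower genes whose palindrome lies inside an EBF1 peak are shown, with the palindrome in capitals, from RefSeq (GRCm38.p6, mm10): Chst3, chr10:60219261-60219510, minus strand; Dpp4, chr2:62412232-62412481, minus strand; and Myo1e, chr9:70207100-70207349, plus strand.
Chst3: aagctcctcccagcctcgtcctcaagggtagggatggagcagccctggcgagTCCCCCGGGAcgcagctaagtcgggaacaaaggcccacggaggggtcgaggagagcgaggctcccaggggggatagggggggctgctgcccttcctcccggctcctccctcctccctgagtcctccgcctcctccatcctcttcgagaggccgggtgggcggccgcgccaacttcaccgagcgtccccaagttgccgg
Dpp4: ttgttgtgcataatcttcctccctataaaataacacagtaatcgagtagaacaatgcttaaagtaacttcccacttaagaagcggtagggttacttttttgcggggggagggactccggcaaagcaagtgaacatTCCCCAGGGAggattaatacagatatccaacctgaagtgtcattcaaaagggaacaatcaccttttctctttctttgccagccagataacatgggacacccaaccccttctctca
Myo1e: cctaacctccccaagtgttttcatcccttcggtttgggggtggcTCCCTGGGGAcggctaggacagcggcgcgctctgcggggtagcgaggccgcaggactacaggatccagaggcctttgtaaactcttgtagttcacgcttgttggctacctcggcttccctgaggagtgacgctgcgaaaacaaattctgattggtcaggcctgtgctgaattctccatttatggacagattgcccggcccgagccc
The palindrome begins 198 bases before the start in Chst3, 115 in Dpp4 and 206 in Myo1e. These 3 genes were chosen after their values were seen. No palindrome was found in the matched promoters of the lower genes with a peak within 1 kb and the highest wild-type levels, such as Pou2af1. Chst3, a chondroitin sulfotransferase, read 463 and 439 CPM in wild type, 147 and 87.0 with Pax5 and 22.1 and 23.8 with empty vector (-1.95 ± 0.25, adjusted p = 7.4e-05 against wild type). Dpp4, a surface peptidase, read 243 and 192 in wild type, 73.8 and 54.0 with Pax5 and 75.5 and 74.6 with empty vector (-1.77 ± 0.22, adjusted p = 5.7e-05), and Myo1e, an unconventional myosin, 143 and 98.9 in wild type, 56.7 and 46.8 with Pax5 and 21.8 and 27.8 with empty vector (-1.22 ± 0.35, adjusted p = 0.025, or adjusted p = 0.19 without wild-type replicate 1). In Chst3 and Myo1e the libraries with Pax5 lay between the other groups, and in Dpp4 they lay just below those with empty vector (-0.23 ± 0.22, adjusted p = 0.68).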

How the data were processed

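The deposited table holds the authors' read counts over exons for 24506 genes, made with HOMER's analyzeRepeats on mm10 without adjustment, per the file headers. STAR 2.6.0b-1 and HOMER 4.8 are named in the submitters' processing notes. The table's column for Pax5-KO with empty vector that bears no number was taken as replicate 1. EBF1 peaks (17230) are the authors' findPeaks list from the pre-B line 230-238, used with its deposited normalized tag count (a signal), its deposited findPeaks score and the authors' fold over control (a ratio). Chromatin contact profiles of the series were not analysed here.

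Counts of all 7 RNA groups (14 libraries, 2 per group) were fitted together in R 4.3.3 with edgeR 4.0.16: filterByExpr kept 14550 genes, libraries were scaled by TMM, and contrasts were tested by the quasi-likelihood test with Benjamini-Hochberg adjustment at 0.05. For a gene without reads in a group, 3 counts for that group set the bound of its fold. The steps were tested on simulated counts. Alternatives were DESeq2 1.42.0, its size factors in edgeR, no filter, the 4 libraries alone, a replicate block, a test against a log2 fold change of 1, and each library left out.

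The comparison, members and 27 gene lists were chosen with earlier results of these data known. Genes were named by rule: Ebf1, Pax5 and Myc, the 10 largest changes each way with at least 20 CPM and no overlap, and from each list up to 6 called genes by fold and up to 4 others by level. Cd74, Lyn, Plcg2, Il2ra, Erg, Irf8, Mycn, Tlr9, Ifit2 and the promoters of Igll1, Chst3, Dpp4 and Myo1e were chosen after their values were seen. Some genes that the rule would name are not reported here.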

Additional observations from a re-analysis of the deposited data

How the results depend on the processing

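The number of calls depended on the processing. Against wild type, 1490 genes were higher and 906 lower; a test against a log2 fold change of 1 gave 797 and 314, and leaving out 1 library gave 843 to 1242 higher and 512 to 639 lower. Against Ebf1-KO with empty vector, 458 were higher and 136 lower; DESeq2 gave 831 and 368, no filter on low counts 701 and 301, a log2 fold change of 1 as the null 107 and 8, and leaving out 1 library 131 to 291 and 28 to 66. Against Pax5-KO with Pax5, 1045 were higher and 1112 lower; DESeq2 gave 1651 higher, the log2 fold change of 1 gave 328 and 248, and leaving out 1 library 392 to 743 and 371 to 819. The cause was not tested beyond what each setting does by construction. With the replicate number as a block, 1654 genes were higher and 1203 lower than wild type, 652 and 264 than empty vector, and 1264 and 1373 than Pax5-KO with Pax5; deviations of same-numbered libraries correlated at 0.001, 0.188 and 0.177 in the same order. Libraries of one number share a header tag of unstated meaning, and not every correlation passed 0.1, so the pairing was not established. Among the genes named in the text, leaving out 1 library turned the sign of 6 log2 fold changes in 8 fits, none past the threshold then. Against wild type, Blnk ranged from -0.43 to 0.17 (0.17 without wild-type replicate 1 and 0.08 without replicate 1 of Ebf1-KO with Pax5), Btk from -0.096 to 0.039 (0.014 without replicate 1 of Ebf1-KO with Pax5), Siglecg from -0.19 to 0.31 and Xist from -5.95 to 0.029. Against empty vector, Igll1 ranged from -0.15 to 3.73 and Vpreb1 from -0.69 to 2.11. With 2 libraries per group the spread is poorly known, and for genes at or near 0 reads the depth allows only bounds.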
